A study of Mus musculus with 6 samples.

Results

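The genes described here are the mouse translation initiation and elongation factors, taken as every protein-coding gene whose symbol starts with Eif or Eef, leaving out the Eif2ak kinases and pseudogenes. Of the 43629 genes in the count table, 64 met that rule. They comprise 49 initiation factors, 7 elongation factors and 8 genes kept apart because they are eIF5A (named as an initiation factor but acting mostly after initiation) or enzymes and partners that modify elongation factors. Enough reads for a test were present for 59 of the 64, namely 47 initiation factors, 6 elongation factors and 6 of the others. RNA came from cells labelled as T cells that had infiltrated tumours in C57BL/6 mice carrying the ovalbumin-expressing melanoma line B16-OVA under the skin. Tumours were taken on day 14 and pooled, and the cells were sorted as T cell receptor positive, CD8+ in the series' design text, and by staining for L-Pha. L-Pha is a plant lectin that binds branched N-linked glycans on the cell surface. The 3 L-Pha low libraries came from weakly stained cells and the 3 L-Pha high libraries from strongly stained cells, and both groups share the mouse strain, tumour and day, with no genetic change or drug named for either. The labels do not say whether the 3 libraries of a group are separate pools, so every p-value here reflects library-to-library spread that could be technical alone.

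Translation starts when the small ribosomal subunit, loaded with initiator tRNA by eIF2 and held open by eIF1, eIF1A and eIF3, is brought to the capped end of an mRNA by the eIF4 factors and scans to a start codon. The eIF5 and eIF5B factors then trigger GTP hydrolysis and the joining of the large subunit. During elongation eEF1A delivers aminoacyl-tRNA, the eEF1B subunits recharge it with GTP, and eEF2 moves the ribosome along by 1 codon. Activated T cells raise protein synthesis strongly, and control of eIF2, eIF4E and eEF2 activity is largely through phosphorylation of the proteins, which RNA levels do not show.

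Library totals ran from 2610729 to 3521117 counts, and 21866 genes had at least 1 count. L-Pha low library 2 stood apart: the gene Gm42418, which overlaps ribosomal RNA sequence, took 25% of its counts, against 9.59% to 15.1% in the other 5 libraries. The 12 T cell identity markers (Cd3e, Cd8a and others) together took 0.0340% to 0.0855% of the counts, with summed levels of 331 to 985 CPM in L-Pha low and 435 to 754 CPM in L-Pha high libraries. The 8 melanoma markers took 0.877% to 1.7% of the counts, and their summed levels were 9604 to 15298 CPM in L-Pha low and 10673 to 16009.6 CPM in L-Pha high libraries. T cell markers were present in every library, among them Trbc2 at 76.4 to 209.8 CPM, Cd8a at 57.05 to 217 CPM and Cd3d at 42.5 to 102 CPM, while Trac was at most 1.04 CPM in any and at 0 in 3. The melanoma sum was carried mostly by Dct, a pigment enzyme gene, at 7970.1 to 14128 CPM. Without Dct the other 7 melanoma markers summed to 1329 to 1881 CPM, still above the T cell sum in every library, although Gpr143, Tyr and Sox10 each stayed at or under 61.2 CPM. Which cells the translation factor reads came from was not tested.

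No translation factor passed the test between L-Pha high and L-Pha low cells. With edgeR's quasi-likelihood test adjusted over all 11183 tested genes, 0 of 59 factors were called, against a background of 0.00894% of all genes, which is 1 gene. At an unadjusted p under 0.05 the count was also 0 of 59, where 3.78% of all genes passed. The unadjusted p-values of the factors ran from 0.0627 for Eif2d to 0.977 for Eif5, and every adjusted p by edgeR was 1.00. The point values of the fold change were above 0 for 28 factors and below 0 for 31, and 49.3% of all tested genes had a value above 0. Only Eif2d, Eif4ebp3 and Eef1akmt1 lay beyond 0.5 on the log2 scale in either direction, where 16.4% of all genes did, and these 3 had 79, 26 and 48 counts in the L-Pha low libraries. In such bulk libraries, fewer cells of a type and less RNA per cell cannot be told apart.

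A missed threshold does not show equal levels, so the interval of each fold change says how large a difference the libraries allow. The 95% interval lay wholly within 2-fold in either direction for 49 of the 59 factors. These were 40 of 47 initiation factors, all 6 tested elongation factors and 3 of the 6 others. The 10 whose interval reached past 2-fold were Eif2d, Eif2s3x, Eif2b1, Eif2b3, Eif4e3, Eif4ebp2, Eif4ebp3, Eef1e1, Eef1akmt1 and Eef1akmt2.

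**Figure D1:**
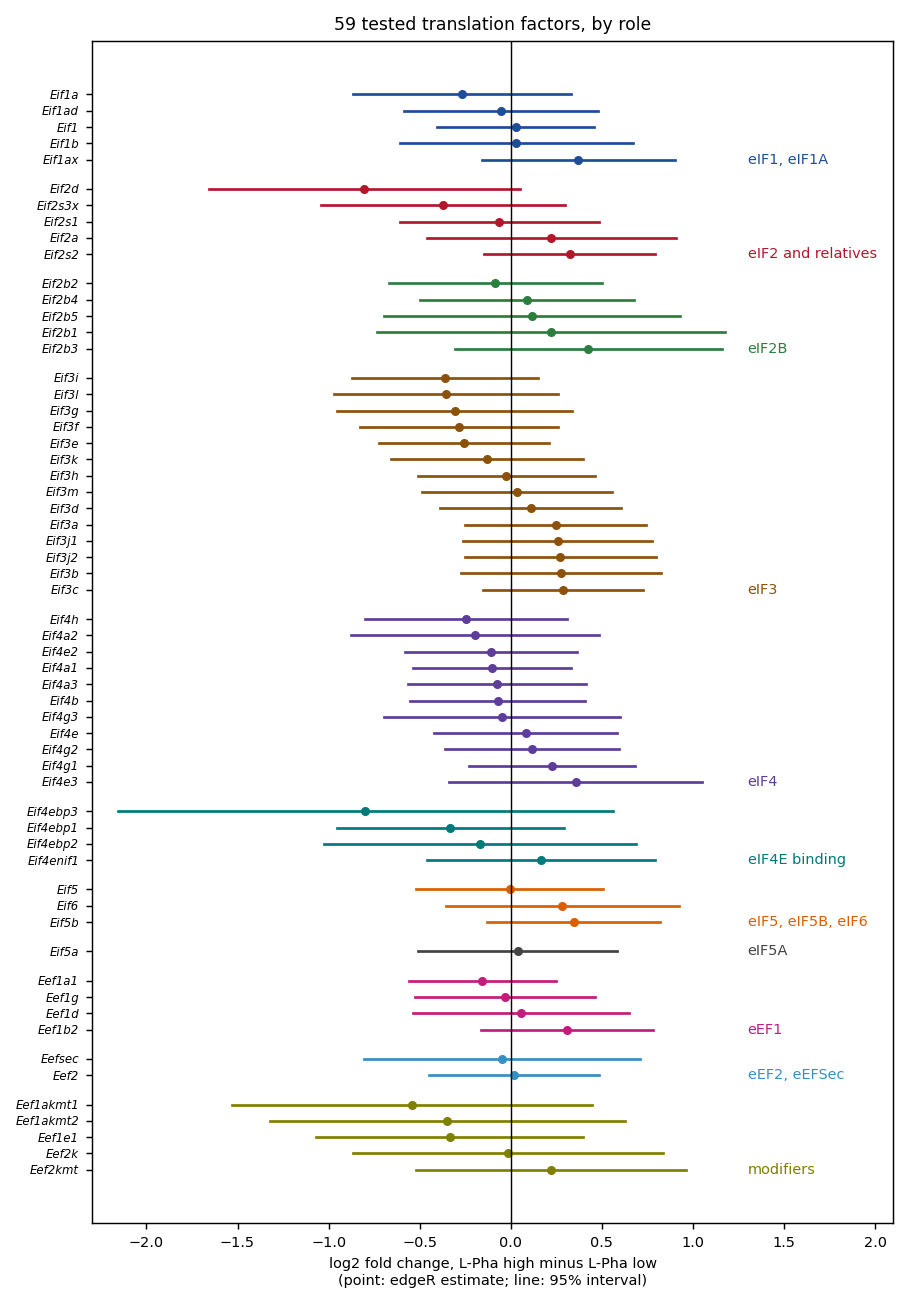
Log2 fold change (x axis, L-Pha high minus L-Pha low) of each of the 59 tested translation factors (y axis), grouped by role; points are edgeR estimates and lines their 95% intervals. Every interval crosses 0, and the intervals of the low-count genes Eif4ebp3 and Eif2d are among the widest.

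Initiation and elongation factors gave nearly the same middle value. The median log2 fold change was -0.01 for the 47 initiation factors, with 23 above 0 and 24 below, and their range was -0.80 to 0.43. For the 6 elongation factors the median was also -0.01, with 3 above and 3 below, and the range was -0.16 to 0.31. Over all tested genes the median was -0.01. The 6 genes of the eIF5A and modifier class had a median of -0.18, with 2 above 0 and 4 below.

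Summed over the 49 initiation factors, the level in CPM (reads of a gene relative to a library's total, scaled by TMM) was 7645, 6988 and 8266 in L-Pha low libraries 1 to 3 and 7854, 8615 and 8380.1 in L-Pha high libraries 1 to 3. The means were 7633 ± 639 (SD, n = 3) and 8283 ± 389.8 (SD, n = 3), and the groups overlapped. Without Eif2s2, which had the highest CPM of them, the sums were 6039 ± 287 and 6289 ± 226 (SD, n = 3 each). The 7 elongation factors summed to 8521, 8537 and 8790.5 CPM in the L-Pha low libraries and to 8128, 9723 and 7992 in the L-Pha high libraries. Their means of 8616 ± 151 and 8614 ± 963 (SD, n = 3 each) differed by far less than the spread. Most of that sum was Eef1a1 and Eef2. Without these genes, the elongation sums were 1508, 1569 and 1991 CPM in L-Pha low and 1633, 2205 and 2123 CPM in L-Pha high libraries. The means were 1689 ± 263 and 1987 ± 309 (SD, n = 3 each), carried mostly by Eef1b2, and the groups overlapped. Summed elongation over initiation gave ratios of 1.11, 1.22 and 1.06 in the L-Pha low and 1.03, 1.13 and 0.954 in the L-Pha high libraries, which also overlapped. Between libraries of the same number, this ratio was lower and the initiation sum higher in L-Pha high in 3 of 3. That direction of the initiation sum depended on Eif2s2. Without it, the sums were 5982, 5785 and 6351 CPM in L-Pha low and 6076, 6527 and 6265 CPM in L-Pha high libraries 1 to 3. Number 3 was then lower in L-Pha high. The labels state no pairing by number, and these directions were not tested.

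**Figure D2:**
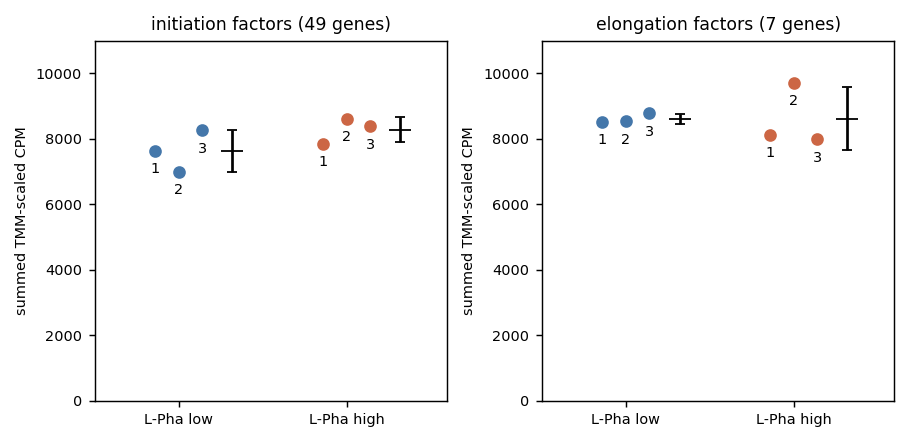
Summed TMM-scaled CPM (y axis, from 0) of the initiation and the elongation factors in L-Pha low and L-Pha high libraries (x axis); numbered points are libraries, and the bar is the mean with its SD over 3 libraries. Both groups overlap for each class, and the elongation sum of L-Pha high library 2, at 9723 CPM, is the highest of the 6.

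The values of 4 factors did not overlap between the groups. Eif1ax and Eif3c were higher in all 3 L-Pha high libraries (2 of 59, background 4.23%), and Eif2d and Eif3e were lower (2 of 59, background 4.18%). In all, 8.41% of the tested genes had such separated groups, so 4 of 59 is close to the background.

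Among the start codon scanning factors, Eif1, which keeps the initiation complex from starting at a wrong codon, was at 659, 566 and 567 CPM in the L-Pha low and 653, 628 and 547 CPM in the L-Pha high libraries. Its log2 fold change was 0.03 ± 0.201 (SE), with a 95% interval of -0.40 to 0.46. The levels of Eif1 were therefore mixed between the groups. Its paralog Eif1b was at 75.7, 91.0 and 156 against 77.2, 122.9 and 129 CPM, giving a log2 fold change of 0.03. Eif1ax, the X-linked gene for eIF1A, which helps the scanning ribosome bind and move, was at 38.5, 28.8 and 41.0 CPM in L-Pha low and 44.2, 47.0 and 49.0 CPM in L-Pha high cells. The lowest L-Pha high value of Eif1ax lay above the highest L-Pha low value, with a log2 fold change of 0.37 ± 0.247 (SE, 95% interval -0.16 to 0.90) that did not pass edgeR's test (adjusted p = 1.00). Its autosomal paralog Eif1a had a point value of -0.27, with an interval of -0.87 to 0.33, from 319 and 305 counts in the L-Pha low and L-Pha high libraries. Eif1ad, a gene named for its eIF1A domain, had a log2 fold change of -0.05.

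The eIF2 complex, which carries initiator tRNA as a trimer of alpha (Eif2s1), beta (Eif2s2) and gamma (Eif2s3x) subunits, had very unequal read levels. Per kilobase of exonic length, the mean over the 6 libraries was 266 CPM for Eif2s2, 12.6 for Eif2s1 and 17.8 for Eif2s3x. In a 3' mRNA library reads need not scale with length, so these values need not measure transcript abundance. Eif2s2 was at 1664, 1203 and 1915 CPM in the L-Pha low and 1777, 2088 and 2115 CPM in the L-Pha high libraries. L-Pha low library 2 was the lowest and the groups overlapped, with a log2 fold change of 0.32 ± 0.218 (SE, 95% interval -0.15 to 0.79, edgeR adjusted p = 1.00). Without L-Pha low library 2 the value for Eif2s2 was 0.15, and without L-Pha low library 3 it was 0.48. Eif2s1, whose protein is the site of stress-induced phosphorylation, was at 50.2, 37.2 and 44.0 against 40.2, 35.0 and 50.6 CPM, a log2 fold change of -0.06. The gamma subunit gene Eif2s3x was at 115, 54.5 and 60.03 against 78.04, 46.4 and 53.0 CPM, with the first library of each group highest. Its log2 fold change was -0.37 ± 0.313 (SE), and without L-Pha low library 1 it was 0.05. Its Y-linked copy Eif2s3y had 0 counts in all 6 libraries, which allows an expected count of up to 3 in each taken alone.

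Eif2d encodes a protein that can deliver tRNA without eIF2 and acts in reinitiation. It was at 10.4, 10.4 and 6.34 CPM in L-Pha low and 4.79, 5.42 and 5.33 CPM in L-Pha high cells, from 79 and 52 counts in all. Every L-Pha high value of Eif2d was below every L-Pha low value, and the log2 fold change was -0.80 ± 0.397 (SE), with a 95% interval of -1.66 to 0.05. This was the smallest p among the factors, 0.0627 before and 1.00 after adjustment by edgeR. Eif2a, an unrelated factor despite its name, had a log2 fold change of 0.22 from 112 and 152 counts.

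The eIF2B complex recharges eIF2 with GTP and is the point at which phosphorylated eIF2 blocks initiation. Of its 5 genes, Eif2b1, Eif2b3, Eif2b4 and Eif2b5 had point values above 0 and Eif2b2 below, with a median of 0.12 and no gene called. Eif2b4, which had the highest CPM of the 5 but came after Eif2b2 per kilobase of exonic length, was at 46.6, 58 and 63.0 against 40.5, 78.04 and 59.96 CPM, so its L-Pha high libraries held both the lowest and the highest value. Its log2 fold change was 0.09, and for Eif2b3, the furthest of the 5 from 0, it was 0.43 with an interval of -0.31 to 1.16.

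The eIF3 complex is the largest initiation factor, a scaffold that binds the small subunit and links it to eIF4G. Its 14 genes split evenly, with 7 point values above 0 and 7 below and a median of 0.00. Eif3c, a core subunit, was at 376, 392 and 445 CPM in L-Pha low and 458, 550.2 and 472 CPM in L-Pha high cells. These groups did not overlap, and the log2 fold change of Eif3c was 0.29 ± 0.204 (SE, 95% interval -0.15 to 0.72, edgeR adjusted p = 1.00). Eif3e, another subunit, went the other way, at 124.9, 137 and 132 against 111, 95.2 and 123.3 CPM. Its groups were narrowly separated, between 123.3 and 124.9 CPM, and the log2 fold change was -0.26 ± 0.219 (SE, 95% interval -0.73 to 0.21, edgeR adjusted p = 1.00).

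Eif3a, the largest subunit of eIF3, was at 440.1, 310.5 and 541 CPM in L-Pha low and 509, 523 and 499 CPM in L-Pha high cells. The L-Pha high values lay close together inside the wide L-Pha low range, and the log2 fold change of 0.25 became 0.05 without L-Pha low library 2. Eif3j1 and Eif3j2 are near-identical genes for the loosely bound j subunit and share reads, so their values are not separate measurements. Eif3j1 was at 223, 143 and 244 against 219, 272 and 238 CPM and Eif3j2 at 206, 125 and 209.9 against 206, 243 and 203 CPM. Both were lowest in L-Pha low library 2, and without it their log2 fold changes of 0.26 and 0.27 became 0.05 and 0.06. Eif3i, a WD-repeat subunit, was at 73.5, 82.3 and 55.2 CPM in L-Pha low and 56.5, 53.3 and 54.6 CPM in L-Pha high cells, a log2 fold change of -0.36 ± 0.238 (SE). In Eif3i the L-Pha high libraries matched L-Pha low library 3 and lay under the other two. For Eif3l the values were 37.2, 65.6 and 38.4 against 29.8, 37.7 and 43.0 CPM, where L-Pha low library 2 was the highest, and the log2 fold change of -0.36 became -0.05 without that library. The remaining eIF3 genes, Eif3b, Eif3d, Eif3f, Eif3g, Eif3h, Eif3k and Eif3m, ran from -0.31 for Eif3g to 0.27 for Eif3b.

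**Figure D3:**
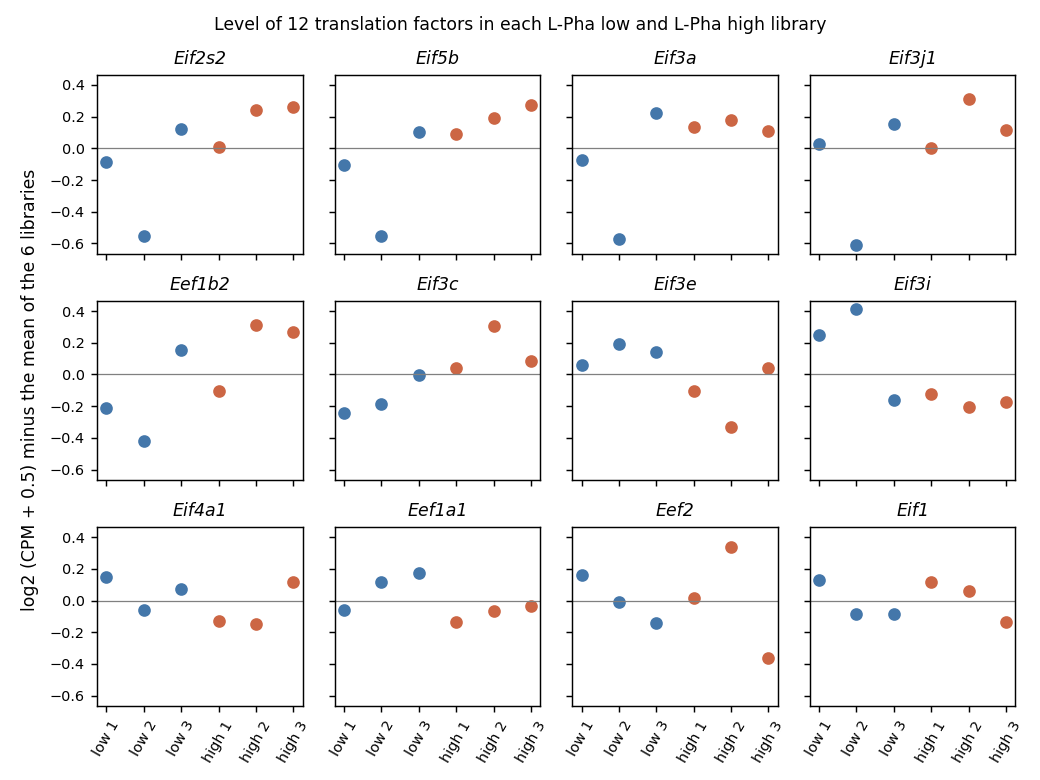
Level of 12 translation factors in each library (x axis) as log2 (CPM + 0.5) minus the mean over the 6 libraries (y axis), L-Pha low in blue and L-Pha high in orange. L-Pha low library 2 is the lowest point for Eif2s2, Eif5b, Eif3a, Eif3j1 and Eef1b2, and the groups are separated only for Eif3c and Eif3e among these 12.

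The eIF4 factors bind the mRNA cap (eIF4E), unwind the leader (eIF4A with eIF4B or eIF4H) and bridge both to the ribosome (eIF4G). Their 11 tested genes had a median log2 fold change of -0.07, with 4 above 0 and 7 below. Eif4a1, the main helicase gene, was at 541, 467 and 513 CPM in L-Pha low and 447, 439.6 and 528 CPM in L-Pha high cells, a log2 fold change of -0.11 ± 0.202 (SE). Its groups overlapped, as did those of Eif4a2, at 125, 63.2 and 64.9 against 87.9, 46.7 and 85.9 CPM, giving a log2 fold change of -0.20. Eif4a3, a helicase of the exon junction complex, had a value of -0.08. The cap-binding gene Eif4e was at 65.0, 55.6 and 79.4 against 65.8, 71.7 and 74.3 CPM, a log2 fold change of 0.08 with an interval of -0.42 to 0.58. Its relatives Eif4e2 and Eif4e3 gave -0.11 and 0.36, and Eif4e3 ran from 38.2 to 86.5 CPM among the L-Pha low libraries alone. The value for Eif4e3 was 0.14 without L-Pha low library 2 and 0.18 without L-Pha high library 3. Without L-Pha low library 3 it was 0.82 (adjusted p = 0.305 by edgeR), the smallest adjusted p of any factor under the alternatives run. Eif4e1b had 0 counts in all 6 libraries, which allows an expected count of up to 3 in each taken alone.

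The scaffold gene Eif4g1 was at 158, 166 and 195 CPM in L-Pha low and 193, 199 and 216 CPM in L-Pha high cells. Only the lowest L-Pha high value of Eif4g1 fell under the highest L-Pha low value, and the log2 fold change was 0.23 ± 0.212 (SE, 95% interval -0.23 to 0.68). Eif4g2, a scaffold that lacks the eIF4E site, and Eif4g3, a paralog of Eif4g1, had values of 0.12 and -0.05. The helicase partners Eif4b and Eif4h had values of -0.07 and -0.24.

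Of the genes whose products bind and restrain or relocate eIF4E, 1 of 4 had a point value above 0 and the median was -0.25. Eif4ebp1, an inhibitor released from eIF4E when mTOR phosphorylates it, was at 29.1, 24.3 and 21.6 CPM in L-Pha low and 21.3, 14.8 and 23.7 CPM in L-Pha high cells. The means were 25.02 ± 3.80 and 19.9 ± 4.61 CPM (SD, n = 3 each), the groups overlapped, and the log2 fold change was -0.33 ± 0.289 (SE). Eif4ebp2 had a value of -0.17. Eif4ebp3 had -0.80 ± 0.634 (SE) from 26 and 17 counts, and its exons overlap those of Ankhd1. Eif4enif1, which carries eIF4E into the nucleus, had 0.17.

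Of the late factors, Eif5b, the GTPase that joins the subunits, was at 385, 282 and 444 CPM in L-Pha low and 441, 471 and 499 CPM in L-Pha high cells. L-Pha low library 3 reached past the lowest L-Pha high value, so the groups of Eif5b overlapped, with a log2 fold change of 0.34 ± 0.222 (SE, 95% interval -0.13 to 0.82, edgeR adjusted p = 1.00). Without L-Pha low library 2 it was 0.18 and without L-Pha low library 3 it was 0.50. Eif5, the GTPase-activating partner of eIF2, had a value of -0.01, and Eif6, which keeps free large subunits from joining, had 0.28.

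Per kilobase of exonic length, Eef1a1, which delivers aminoacyl-tRNA, had the highest mean of the factors, at 1284 CPM, next to Eef2 at 1155 and Eef1b2 at 533. In CPM, which in a 3' tag library need not scale with length, Eef2 was above Eef1a1, so the order turned with the scale. Eef1a1 was at 3064, 3461 and 3594 CPM in L-Pha low and 2912, 3051 and 3119.8 CPM in L-Pha high cells. Its means were 3373 ± 276 and 3028 ± 106 CPM (SD, n = 3 each), a difference that crossed only at L-Pha low library 1. The log2 fold change of Eef1a1 was -0.16 ± 0.188 (SE, 95% interval -0.56 to 0.25, edgeR adjusted p = 1.00). The annotated miRNA gene Gm26377 lies within its exons and took the same reads, 8423 to 9863 counts per library. Eef1a2, the muscle and nerve form, had 1 count in 1 library.

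Among the exchange factor subunits that recharge eEF1A, Eef1b2 was at 1147, 993 and 1478 CPM in L-Pha low and 1236, 1648 and 1602 CPM in L-Pha high cells. L-Pha low library 3 lay among the L-Pha high values, and the log2 fold change was 0.31 ± 0.220 (SE, 95% interval -0.16 to 0.78, edgeR adjusted p = 1.00). For Eef1b2 it was 0.18 without L-Pha low library 2 and 0.49 without L-Pha low library 3. Eef1d was at 201, 342 and 346 against 206, 366 and 353 CPM, with library 1 lowest in both groups, and its log2 fold change was 0.06. Eef1g was at 149, 221 and 159 against 181, 182 and 155 CPM, with a value of -0.03.

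Eef2, the translocation GTPase, was at 3949, 3507 and 3205 CPM in L-Pha low and 3583, 4467 and 2749 CPM in L-Pha high cells. L-Pha high libraries 2 and 3 were the highest and the lowest of all 6, and the means of 3554 ± 374 and 3599.8 ± 859 CPM (SD, n = 3 each) gave a log2 fold change of 0.02 (95% interval -0.45 to 0.49). Eefsec, which brings selenocysteine tRNA, had -0.05. The kinase gene Eef2k, whose product inactivates eEF2, was at 6.74 ± 1.58 and 6.67 ± 0.652 CPM (SD, n = 3 each), a log2 fold change of -0.01. Among genes for enzymes that methylate elongation factors, Eef2kmt had 0.22, Eef1akmt1 -0.54 and Eef1akmt2 -0.35. A further one, Eef1akmt3, had 0 counts in all 6 libraries, which allows an expected count of up to 3 in each taken alone. Eef1e1, a scaffold of the tRNA synthetase complex, had -0.34 ± 0.341 (SE), which became -0.059 without L-Pha low library 1.

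Eif5a, whose hypusine-bearing product helps ribosomes past difficult peptide bonds, was at 270.2, 344 and 170.4 CPM in L-Pha low and 276, 258 and 272 CPM in L-Pha high cells. The L-Pha high libraries sat close together inside the L-Pha low range, with a log2 fold change of 0.04 (95% interval -0.51 to 0.58). Its paralog Eif5a2 was not tested, with 5, 9 and 5 counts against 20, 3 and 3.

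The libraries were made with a 3' mRNA kit, in which oligo(dT) primers pair with runs of A, so the densest run of A in each coding sequence was set beside the fold changes. For each gene the 20 consecutive coding bases with the most A were found, a grouping chosen after the values were seen and given without a test. Over 9724 tested protein-coding genes the median was 12 A of 20, with quartiles of 11 and 13. The sequences of 5 factors with 14 or more A and 2 with 10 or fewer are shown because Eif2s2 and Eif5b, the factors with the densest A, were also among the highest point values. Each is a GRCm38 coding sequence read 5′ to 3′ on the gene's strand, with the richest 20 bases in capitals and 20 bases on either side. The windows lie in coding exons at chr2:154884358-154884377 on the minus strand (Eif2s2, exon 4, 17 A), chr1:38022201-38022220 on the plus strand (Eif5b, exon 6, 17 A) and chr12:111541732-111541751 on the plus strand (Eif5, exon 7, 16 A). Those of Eif3j1 (exon 4, 15 A) and Eif3c (exon 5, 14 A) are at chr2:122041599-122041618 on the plus strand and chr7:126563713-126563732 on the minus strand. Those of Eif3i (exon 2, 9 A) and Eef2 (exon 2, 10 A) are at chr4:129600449-129600468 on the minus strand and chr10:81177695-81177714 on the plus strand.
Eif2s2: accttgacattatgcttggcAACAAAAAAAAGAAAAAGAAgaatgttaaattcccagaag
Eif5b: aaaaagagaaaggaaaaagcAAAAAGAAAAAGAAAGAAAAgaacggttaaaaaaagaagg
Eif5: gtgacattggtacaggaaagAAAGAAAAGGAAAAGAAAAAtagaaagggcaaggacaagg
Eif3j1: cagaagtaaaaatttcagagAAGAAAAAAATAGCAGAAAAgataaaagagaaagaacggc
Eif3c: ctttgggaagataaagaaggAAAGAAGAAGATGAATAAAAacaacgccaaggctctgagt
Eif3i: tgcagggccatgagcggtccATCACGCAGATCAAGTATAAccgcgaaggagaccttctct
Eef2: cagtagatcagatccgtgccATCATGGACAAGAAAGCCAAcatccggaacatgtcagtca

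Grouped by these windows, the factors had medians further apart than as initiation and elongation. Because the windows were chosen after the values were seen, a wider gap is not a result by itself. The 13 tested factors with 14 or more A, all of them initiation factors, had 10 point values above 0 and 3 below, with a median log2 fold change of 0.23. These 10 include both Eif3j1 and Eif3j2, which share reads and are not separate measurements. The 26 with 12 or 13 A had 14 above and 12 below and a median of 0.03. The 20 with 11 or fewer had 4 above and 16 below and a median of -0.16. All tested protein-coding genes followed the same order: of 1926 genes with 14 or more A, 62.1% were above 0 with a median of 0.08, and of 3959 with 11 or fewer, 43.3% were above 0 with a median of -0.05. The order among the factors was thus one that the whole table also showed. Single factors lay off that order. Among them were Eif5 (16 A, -0.01), Eif4b and Eif4g3 (14 A, -0.07 and -0.05), Eif4e3 (10 A, 0.36) and Eif6 (9 A, 0.28). Factors with 12 A ran from -0.80 for Eif2d to 0.31 for Eef1b2.

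The libraries contributed unequally to this order. Set against its mean over the 6 libraries, the median log2 level of the 13 A-rich factors was -0.10, -0.26 and 0.11 in L-Pha low libraries 1 to 3 and 0.04, 0.19 and 0.18 in L-Pha high libraries 1 to 3. Over all genes with 14 or more A the same medians were -0.11, -0.15 and 0.15, then -0.03, 0.11 and 0.14. L-Pha low library 3 was thus on the side of L-Pha high libraries 2 and 3, and L-Pha low library 2, the one with the largest Gm42418 share, was the lowest. Without L-Pha low library 2 the median log2 fold change of the A-rich factors was 0.11. Coding length moved with A content, at a median of 2076 bases for all genes with 14 or more A and 999 for those with 11 or fewer. With genes split into 4 equal groups by coding length, the medians in the longest group were 0.10 for genes with 14 or more A and -0.06 for those with 11 or fewer, and in the shortest group 0.06 and -0.06. The summed melanoma markers, carried mostly by Dct, moved with the order too. The summed melanoma markers were highest in L-Pha low library 3 and L-Pha high libraries 2 and 3, at 15298, 13409.6 and 16009.6 CPM against 9604 to 10673 in the others, and these were also the libraries with the highest A-rich medians over all genes. Without Dct the other 7 melanoma markers did not follow it. They summed to 1634, 1853 and 1809 CPM in L-Pha low libraries 1 to 3 and 1663, 1329 and 1881 CPM in L-Pha high libraries 1 to 3. L-Pha high library 2 was thus the lowest in that sum. The summed T cell markers were lowest in L-Pha low library 3 and L-Pha high library 3, at 331 and 435 CPM, but L-Pha high library 2 was at 754 CPM, above the 630 CPM of L-Pha high library 1. Whether A content, coding length, the Gm42418 share or cell content had a part in these differences was not tested.

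**Figure D4:**
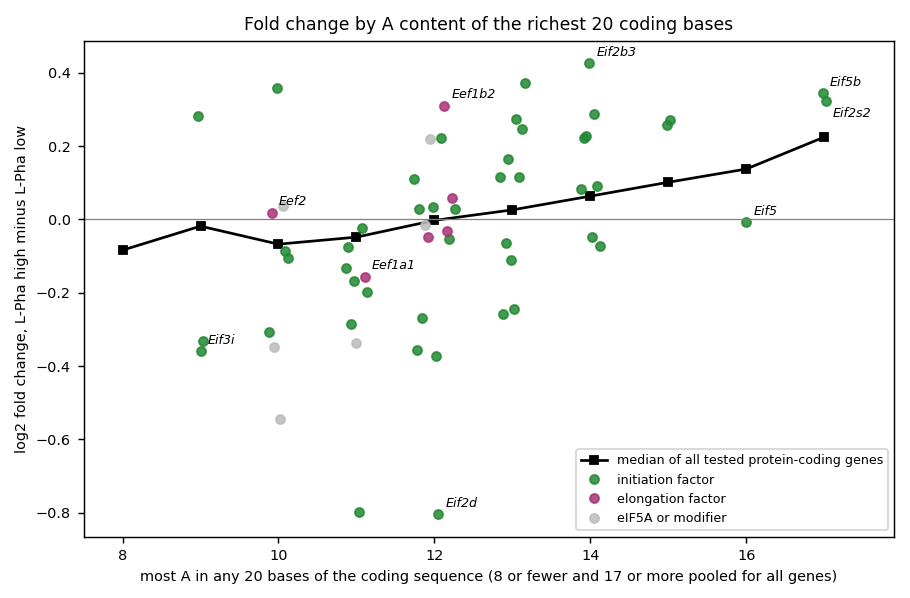
Log2 fold change (y axis, L-Pha high minus L-Pha low) of the 59 tested factors against the most A in any 20 coding bases (x axis, points spread slightly sideways), with the median of all tested protein-coding genes at each A count as black squares. Eif2s2 and Eif5b, with 17 A, lie at 0.32 and 0.34, and the median over all genes runs from -0.08 at 8 or fewer A to 0.22 at 17 or more.

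The other genes of the translation pathway also gave no call. Of 53 genes on 6 lists (eIF2 alpha kinases and stress response, cap, poly(A) and mTOR control, reinitiation, recycling and release, hypusine and diphthamide synthesis, the eEF1 partner Tpt1, and mitochondrial factors), 49 were tested and edgeR called 0, with 0 at an unadjusted p under 0.05. Point values were above 0 for 22 and below for 27, with a median log2 fold change of -0.01. The cap, poly(A) and mTOR list had 4 above and 11 below and a median of -0.17. Its member Rptor, the mTORC1 scaffold, had the smallest p of the 49, at 23.9, 14.9 and 11.2 CPM in L-Pha low and 9.06, 11.8 and 9.99 CPM in L-Pha high cells. L-Pha low library 3 lay among the L-Pha high values of Rptor, and the log2 fold change was -0.71 ± 0.353 (SE, edgeR adjusted p = 1.00). Tufm, the mitochondrial counterpart of eEF1A, had -0.67, Pdcd4, an inhibitor of eIF4A, -0.50 and Bzw2, an eIF5-mimic protein, -0.39, each with an adjusted p of 1.00 by edgeR. Of these 4 only Bzw2 had separated groups, at 45.6, 51.1 and 55.9 against 34.4, 42.8 and 39.3 CPM.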

How the data were processed

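The 6 libraries, 3 per group by their labels, were made with the QuantSeq 3' mRNA kit. Per the file headers, the deposited read counts of each gene are the output of featureCounts 1.5.0-p3, run by the authors with Ensembl release 78 annotation of GRCm38. The recorded options count a read at each of its alignments and in each gene it overlaps, so near-identical or overlapping genes share reads. Per the submitters' processing notes, HISAT2 2.1.0, cutadapt 1.7 and Subread 1.5.0 were used, along with limma, bcl2fastq 2.17.1.14 and FastQC 0.11.5. They also name build hg19, but the count header's mouse build was used here. A second table of log2 values, deposited by the authors for 14293 symbols, served 1 alternative; how it was made is not given in the sources used here. No column of per-sample values was left unused (0).

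Symbols, exons and coding sequences came from GENCODE M21 on GRCm38, which named 97.5% of the 43629 genes. Genes passing edgeR's filterByExpr (11183) received TMM scaling and edgeR 4.0.16's test in R 4.3.3 (robust quasi-likelihood F test, two-sided, group as the only term, Benjamini-Hochberg adjustment over all tested genes, threshold 0.05). A positive log2 fold change means a higher level in L-Pha high. Its SE and 95% intervals derive from the F statistic. Limma 3.58.1 and DESeq2 1.42.0 were alternatives. The fit was tested on simulated data: for this comparison over 10884 genes it recovered 21 of 100 genes changed 2-fold and 88 of 100 changed 4-fold, with 6 false calls. Library totals were 2610729 to 3521117 counts, and the sources used here name no molecular identifiers. Limits set by a count of 0 (an expected count of 3) therefore cover counting error only.

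The members, role lists, pathway lists and cell markers were chosen with earlier results of these data known. Members described in full were the most abundant of each role, up to 5 per direction with the smallest p, those whose groups did not overlap, fixed paralog sets and the untested. Other pathway genes were the 4 with the smallest p. The remaining members are named to account for all. The A-rich windows and the 12 genes plotted by library were chosen after their values were seen.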

Additional observations from a re-analysis of the deposited data

How the results depend on the processing

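None of the 15 alternatives called a translation factor at an adjusted p under 0.05, nor a gene of the pathway lists. The smallest adjusted p of a factor was 0.305 (Eif4e3, edgeR, without L-Pha low library 3). At an unadjusted p under 0.05, Eif5b, Eef1b2, Eif2s2 and Eif4e3 were higher and Eif2d lower without L-Pha low library 3. Eif5b also passed with the replicate number as a block (adjusted p = 0.600 by edgeR) and Eif2d in the deposited log2 table, and no factor passed under the other 12. Over all genes, 0 were called higher and 1 lower. The higher and lower counts were 20 and 27 with no filter on low counts, 8 and 22 with DESeq2, 5 and 0 by limma on the deposited log2 table, and 20 and 23 with the replicate block. Lower calls were 0 with library totals alone and 0 with limma-voom. Leaving out 1 library gave 0 to 1 higher and 0 to 7 lower, the most without L-Pha low library 3. The library titles number the L-Pha low and the L-Pha high samples 1 to 3 each, but the labels do not state that equal numbers pair the libraries. For a check, each gene's group mean was subtracted from its log2 CPM, and the libraries were correlated on what remained. On these deviations same-numbered libraries correlated at 0.368, 0.0825 and 0.467. Of the 6 libraries, 5 correlated best with the library of their own number in the other group. Because no label states a pairing, the main test left the number out, although these correlations do not exclude one. At an unadjusted p under 0.05 by edgeR, 925 genes passed with the replicate block and 423 in the main test. Between same-numbered libraries the ratio of elongation to initiation sums was lower, and the initiation sum higher, in L-Pha high in 3 of 3, which was not tested. Without Eif2s2 the initiation sum of number 3 was lower in L-Pha high, at 6265 against 6351 CPM.

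The median log2 fold change of initiation factors was 0.088 with library totals alone, which moved the median of all genes to 0.10, and -0.056 to 0.083 with 1 library left out. That of elongation factors was -0.10 to 0.16 with 1 library left out. The A-rich median stayed above 0 (0.11 to 0.34) and the A-poor median below 0 (-0.30 to -0.06) in all 15.

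Signs of small differences depended on the setting, and the cause was not tested. Eef2 was -0.0036 with limma-voom and -0.0044 with the replicate block. With library totals alone, Eif4a3 was 0.030 and Eif4g3 was 0.073. Leaving out 1 library gave -0.18 to 0.18 for Eef2, -0.024 to 0.11 for Eif1, -0.17 to 0.40 for Eif1b and -0.17 to 0.31 for Eif2b4. It gave -0.63 to 0.050 for Eif2s3x, -0.37 to 0.20 for Eif4a2, -0.039 to 0.23 for Eif4e and -0.45 to 0.22 for Eif4ebp2. It gave -0.022 to 0.25 for Eif4g2, -0.26 to 0.23 for Eif4g3 and -0.19 to 0.28 for Eif5a. Without a change of sign, it gave -0.53 to -0.13 for Eif1a, 0.23 to 0.47 for Eif1ax, 0.19 to 0.37 for Eif3c, -0.50 to -0.24 for Eif3i, -0.47 to -0.17 for Eif4ebp1, -1.39 to -0.50 for Eif4ebp3, 0.14 to 0.82 for Eif4e3 and -0.49 to -0.059 for Eef1e1. The simulated recovery of 21 of 100 genes changed 2-fold limits what a lack of calls shows.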

Other observations

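Some rows left out of the translation factors by the pseudogene rule held reads. Eif1-ps1 had 78, 95 and 45 counts in L-Pha low libraries 1 to 3 and 137, 103 and 70 in L-Pha high libraries 1 to 3. Eif3s6-ps1, named for the older symbol of Eif3e, had 30, 43 and 42 against 36, 35 and 49 counts. Eif4a-ps4 had 9, 25 and 35 against 21, 19 and 28. Reads with several alignments were counted at each of them.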
